A study of Mus musculus with 61 samples.

Results

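Neuronal intermediate filaments are the rope-like polymers that fill axons. The 5 genes described here are Nefl, Nefm and Nefh, which encode the light, medium and heavy neurofilament subunits, Ina, which encodes alpha-internexin, and Prph, which encodes peripherin. They were found by their gene symbols in the deposited expression table, 5 of 43346 genes, and no measured value was used to choose them. All 5 were at 1 TPM (transcripts scaled to the same total in every library and corrected for transcript length) or more in at least 2 libraries and so were among the 18655 genes tested. The table covers RNA-seq of mouse fetal and newborn tissue: forebrain, midbrain and hindbrain at every embryonic day from E10.5 to E16.5 and at birth (P0), and liver from E11.5 to P0. Brain gave 47 of the 61 libraries (15, 16 and 16 from front to back) and liver the other 14. Groups of 1 tissue and 1 stage held 2 libraries; only the E10.5 forebrain group held a single library. The labels name tissue and stage only: no genotype, treatment or strain is given in the sources used here, and nothing says that the 2 libraries of a group came from separate animals, so the p-values measure the spread between these libraries, which may be technical.

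Nefl, Nefm, Nefh and Ina belong to the type IV intermediate filaments and Prph to type III, and in neurons they co-assemble. The light subunit forms the core of the filament, while the medium and heavy subunits carry long, heavily phosphorylated tails that project from it. Alpha-internexin is known as an early filament of young central neurons, the heavy subunit as a late one, and peripherin as the filament of neurons whose axons leave the brain, such as sensory ganglion and cranial motor neurons. Neurofilaments are best known for setting the calibre of myelinated axons.

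The members lie on 4 chromosomes of the mm10 build. Nefl (ENSMUSG00000022055, chr14:68083863-68089095, plus strand) and Nefm (ENSMUSG00000022054, chr14:68082590-68124846, minus strand) are neighbours on opposite strands, and an exon of each overlaps the other over 1108 bases. The kit used marks strand, but whether the counting used it is not given in the sources used here, so values of Nefl and Nefm could share some reads there. Nefh (ENSMUSG00000020396) lies at chr11:4938754-4948064 on the minus strand. Ina (ENSMUSG00000034336) lies at chr19:47014698-47025327 on the plus strand, with 456 bases of exon shared with an exon of Nt5c2. Prph (ENSMUSG00000023484) lies at chr15:99055174-99058978 on the plus strand.

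On average over E11.5 to P0, Ina and Prph had the shallowest and the steepest gradients from forebrain to hindbrain. They were also the only members that matched the promoter table used here, and the 250 bases before each start are shown for that reason. Both are from RefSeq on GRCm38.p6, plus strand, 5′ to 3′: Ina at chr19:47014431-47014680 and Prph at chr15:99054924-99055173. Capitals mark the letters TATAAA.

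Ina: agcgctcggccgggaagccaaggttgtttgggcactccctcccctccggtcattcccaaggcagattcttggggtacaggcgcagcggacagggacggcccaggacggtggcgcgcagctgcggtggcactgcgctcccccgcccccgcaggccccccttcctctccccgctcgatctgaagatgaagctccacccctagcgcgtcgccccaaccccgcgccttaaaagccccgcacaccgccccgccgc
Prph: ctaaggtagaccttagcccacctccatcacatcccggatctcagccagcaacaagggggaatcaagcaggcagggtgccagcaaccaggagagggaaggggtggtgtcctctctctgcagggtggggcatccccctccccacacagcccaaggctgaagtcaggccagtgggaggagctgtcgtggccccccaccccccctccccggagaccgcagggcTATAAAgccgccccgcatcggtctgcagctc

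The Prph window holds 1 TATAAA, starting 31 bases before the start of the gene, and the Ina window holds none. The letters TATAAA occur on either strand in 12.4% of 32851 promoter windows of the same length. GGGCGG, read on both strands, occurs 2 times in the Ina window, at 111 and 12 bases before the start, and 1 time in the Prph window, at 24 bases before it. It occurs in 32.7% of all windows. The Ina window also holds 1 CANNTG, at 135 bases before the start, against 66.2% of all windows with at least 1. Neither window holds CCAAT, which 33.9% of all windows hold, and none of these matches overlap. The Ina window is 70.8% G and C and the Prph window 65.2%, against a median of 52.4% over all windows. These are matches of letters, not measured binding sites.

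Some facts of the libraries bear on the values below. TPM keeps no depth, so the number of reads behind each value is unknown. Between 13780 and 15561 genes were at 1 TPM or more in each brain library. The libraries labelled midbrain and hindbrain at E15.5 went against their labels in regional marker genes. Hoxb3, a homeobox gene of the hindbrain, was listed at 78.0 and 87.6 TPM in those labelled midbrain and at 0.15 and 0.24 TPM in those labelled hindbrain. At E14.5 it was at 0.40 and 2.08 TPM in midbrain and at 78.0 and 105 TPM in hindbrain. Otx2, a homeobox gene of forebrain and midbrain, changed places in the same way. These 4 libraries are therefore called by their labels throughout, and average differences between brain regions are given with and without them. A second split crossed the groups: Gm5537, a processed pseudogene, was listed at 0 in 20 of the 47 brain libraries (all those at E10.5, E12.5 and E15.5, both midbrain libraries at P0 and 1 hindbrain library at P0) and at 7.22 to 40.9 TPM in the other 27. Comparisons of E10.5, E12.5 or E15.5 with a neighbouring stage cross this split, as do comparisons of midbrain at P0 with E11.5, E13.5, E14.5 or E16.5, those of hindbrain at P0 for 1 of its libraries, and those between regions at P0. In these, the step and the split cannot be told apart, except where a value within 1 side of the split is given. In 4 library columns the stage in the header disagreed with the sample record. They were kept at the stage of the header and are called unnumbered, because the header's replicate number could not be tied to a record.

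Nefl, the core subunit, differed more between forebrain and hindbrain on average over E11.5 to P0 than the other abundant members, Nefm and Ina, though not at P0, where the ratio of means was 4.53 for Nefl and 7.46 for Nefm. Its P0 libraries lay above its E11.5 libraries in every region. In forebrain it was at 4.22 TPM in the single E10.5 library, 13.6 and 14.4 TPM at E11.5, 30.4 and 46.9 TPM at E14.5, and 122 and 95.1 TPM at P0. In midbrain it was at 66.95 and 61.66 TPM at E10.5, 101 and 103 TPM at E11.5, 163 and 159 TPM at E14.5, and 200.4 and 218 TPM at P0. In hindbrain it was at 156 and 109 TPM at E10.5, 278 and 264 TPM at E11.5, 351 and 404 TPM at E14.5, and 499.9 and 483 TPM at P0. The hindbrain libraries were the highest and the forebrain libraries the lowest at each of these stages, with no overlap between regions. Forebrain at birth had only come up to the level that midbrain had at E11.5. At E15.5 the order of midbrain and hindbrain was the other way round: 491 and 465 TPM in the libraries labelled midbrain and 149 and 160.1 TPM in those labelled hindbrain.

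Nefm, the medium subunit, was above Nefl at E10.5 and below it at P0 in all 3 regions, on the per-length TPM scale. In forebrain it went from 7.34 TPM at E10.5 through 19.8 and 22.3 TPM at E11.5 to 46.4 and 47.2 TPM at P0. In midbrain it was at 102 and 118 TPM at E11.5, 65.7 and 58.9 TPM at E13.5, 97.7 and 91.4 TPM at E14.5, and 60.8 and 65.5 TPM at P0, so that both P0 libraries lay below both E11.5 libraries. In hindbrain it stayed high, at 264 and 275 TPM at E11.5 and 384 and 314 TPM at P0, and its lowest hindbrain mean, apart from E15.5, was at E12.5 (191 and 210.4 TPM). The libraries labelled midbrain at E15.5 were at 423 and 359.6 TPM and those labelled hindbrain at 76.7 and 87.3 TPM.

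Nefh, the heavy subunit, was the latest member to appear. It was below 1 TPM in every brain library at E10.5, reached 4.13 and 2.71 TPM in forebrain and 10.9 and 10.9 TPM in midbrain at P0, and reached 45.8 and 43.9 TPM in hindbrain at P0. The rise in hindbrain came in steps: 1.69 and 1.82 TPM at E12.5, 7.17 and 5.74 TPM at E13.5, 9.26 and 9.57 TPM at E14.5, and 26.1 and 34.1 TPM at E16.5. Its P0 mean was 81.6 times its E10.5 mean in hindbrain, 20.8 times in midbrain and 13.2 times in forebrain, where E10.5 was a single library. At E10.5 the midbrain (0.55 and 0.50 TPM) and hindbrain (0.58 and 0.52 TPM) libraries overlapped, and from E11.5 on hindbrain was above midbrain and midbrain above forebrain without overlap at every stage but E15.5. In 16 of the 47 brain libraries Nefh was below 1 TPM, where a change on the log2(TPM + 1) scale is understated.

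Ina was the most abundant member in most libraries and the only one whose level peaked before birth in all 3 regions. In forebrain it rose from 15.1 TPM at E10.5 to 80.4 and 95.3 TPM at E11.5 and 199.99 and 222 TPM at E12.5, was highest at E15.5, at 333 and 315 TPM, and stood at 228 and 206 TPM at P0. In midbrain it peaked at E14.5, at 638 and 664 TPM, and was at 333 and 372 TPM at P0. In hindbrain it peaked at E13.5, at 759.6 and 792 TPM, and was at 339 and 377 TPM at P0. Thus the P0 midbrain and hindbrain libraries overlapped, as they did not at any stage from E11.5 to E13.5. The ratio of the hindbrain to the forebrain mean was 8.81 at E10.5, where forebrain was a single library, and 3.82 at E11.5. It narrowed further to 1.60 at E16.5 and was 1.65 at P0.

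Prph, the peripheral type III filament, had the lowest forebrain values beside Nefh and, at every stage from E11.5, the widest ratio of hindbrain to forebrain. At E10.5 the ratio was wider for Nefl, at 31.4, and Nefm, at 29.8. In forebrain it never passed 1.75 TPM, and at E11.5, at 0.27 and 0.23 TPM, it was below all liver libraries, which lay between 0.29 and 0.75 TPM. In midbrain, leaving out the libraries labelled E15.5, it lay between 2.86 TPM and 18.5 TPM. In hindbrain it was at 8.80 and 5.07 TPM at E10.5, 17.1 and 17.0 TPM at E11.5, 26.4 and 28.0 TPM at E12.5, 78.9 and 89.9 TPM at E13.5, 91.9 and 185 TPM at E14.5, 86.1 and 83.8 TPM at E16.5, and 59.2 and 55.8 TPM at P0. Hindbrain levels were thus highest around E14.5 and lower at birth, and the libraries of E14.5 differed from each other by a factor of 2.01. The hindbrain mean was 26.7 times the forebrain mean at E10.5, 116 times at E14.5 and 34.4 times at P0. At E15.5 the libraries labelled midbrain held 132 and 115 TPM and those labelled hindbrain 11.9 and 7.21 TPM.

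**Figure D1:**
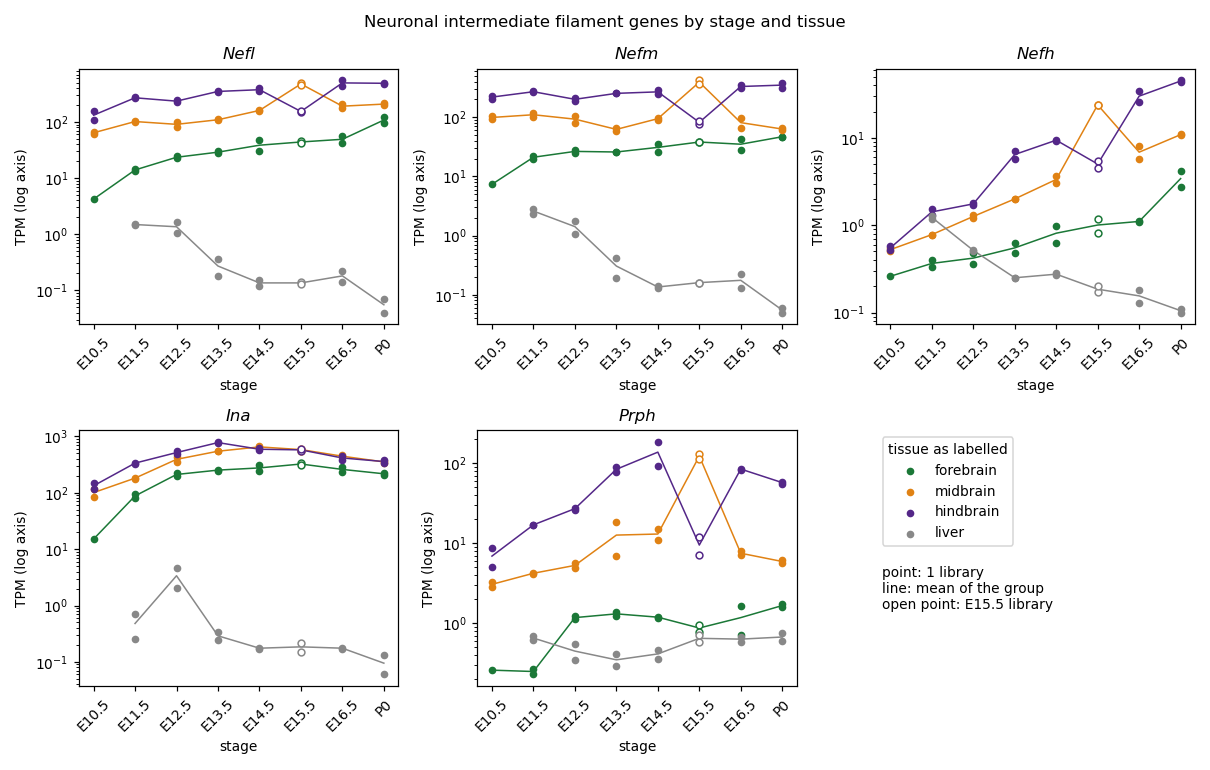
Level of each of the 5 genes by stage in forebrain, midbrain, hindbrain and liver, as TPM on a log axis. Points are libraries and lines join the group means; hindbrain lies above midbrain and midbrain above forebrain for Nefl, Nefm and Prph at every stage but E15.5, where the libraries labelled midbrain and hindbrain change places, and Nefh in hindbrain climbs to 45.8 and 43.9 TPM at P0.

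The ordering of regions was counted library by library. Forebrain lay below midbrain and midbrain below hindbrain, with no overlap between libraries, at 7 of 8 stages for Nefl, Nefm and Prph, at 6 of 8 for Nefh and at 4 of 8 for Ina. The share of all genes in such an order is not given here, so these counts do not show how unusual the members are. Without E15.5 the order held at 7 of 7 stages for Nefl, Nefm and Prph. For Ina it held from E10.5 to E13.5, and from E14.5 the midbrain and hindbrain libraries were no longer in that order without overlap.

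The average regional difference over E11.5 to P0 asks how strong the gradient was, with each stage given the same weight. A gene was called where limma's Benjamini-Hochberg adjusted p over all 18655 genes was below 0.05 and the difference was at least 1 on the log2(TPM + 1) scale. Between forebrain and hindbrain all 5 members were lower in forebrain, against 3.28% of all genes tested that were called lower there. The forebrain-minus-hindbrain difference was -4.41 (SE 0.10) for Prph, -3.08 (SE 0.06) for Nefl, -2.86 (SE 0.06) for Nefm, -2.20 (SE 0.05) for Nefh and -1.17 (SE 0.07) for Ina. The limma adjusted p was largest for Ina, at 1.97e-17. These differences were larger without E15.5, at -4.74, -3.30, -3.15, -2.31 and -1.22 in the same order. They were larger again over the 4 stages at which every brain library had Gm5537 above 0 (E11.5, E13.5, E14.5 and E16.5), at -5.07, -3.58, -3.30, -2.37 and -1.33.

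The step from forebrain to midbrain and the step from midbrain to hindbrain differed between members. Between forebrain and midbrain 4 of 5 members were lower in forebrain, against 1.77% of all genes called lower: Prph at -2.59 (SE 0.10), Nefl at -2.13 (SE 0.06), Nefm at -1.70 (SE 0.06) and Nefh at -1.46 (SE 0.05). Without E15.5 they were smaller and still called, at -2.01, -1.92, -1.42 and -1.10. Ina, at -0.94 (SE 0.07), fell short of the size threshold, which it passed at -1.04 over those 4 stages. Between midbrain and hindbrain 2 of 5 were lower in midbrain, against 0.718% of all genes: Prph at -1.83 (SE 0.10) and Nefm at -1.16 (SE 0.06). Nefl was at -0.95, Nefh at -0.74 and Ina at -0.22. Without the E15.5 libraries 4 of 5 were called, at -2.73 for Prph, -1.73 for Nefm, -1.38 for Nefl and -1.21 for Nefh, with 1.75% of all genes called in either direction. Ina stayed short of the threshold at -0.26.

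Stage by stage, region pairs gave 120 comparisons of a member, of which 92 were called, or 80 of 105 without E15.5. Pooled over the 24 comparisons of a region pair at a stage, 4.75% of all genes tested were called in either direction, with a range of 1.88% to 9.93%. At E15.5, 4 of 5 members were called higher in the libraries labelled midbrain than in those labelled hindbrain and none lower, the opposite of the other stages.

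**Figure D2:**
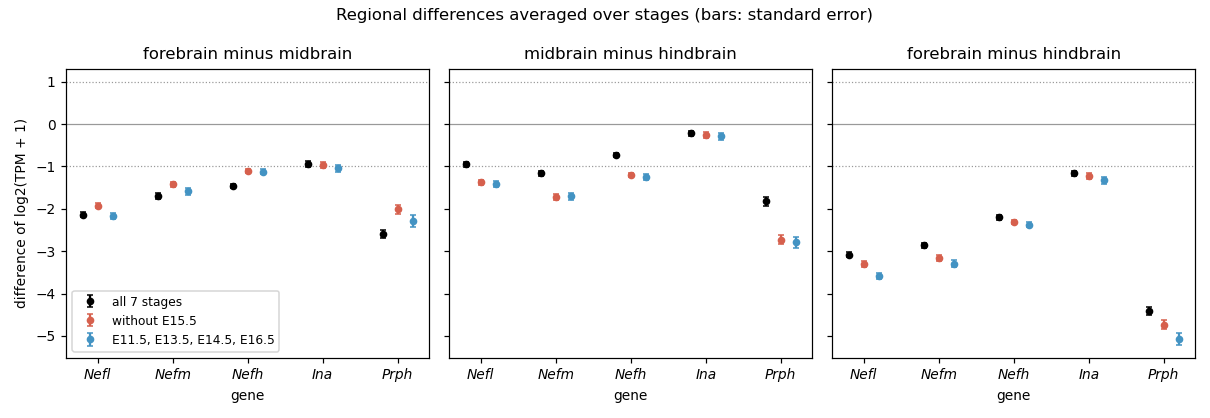
Differences between regions on the log2(TPM + 1) scale for each member, averaged over E11.5 to P0, over all 7 stages, without E15.5, and over E11.5, E13.5, E14.5 and E16.5. Points are limma estimates with bars of 1 SE and the dotted lines mark differences of 1 and -1; Prph has the largest difference between forebrain and hindbrain, at -4.41, and Ina the smallest, at -1.17.

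Between E11.5 and birth, forebrain was the region in which the whole family rose. All 5 members were called higher at P0 than at E11.5 in forebrain, against 19.2% of all genes tested. The rise was 2.86 (SE 0.15) for Nefl, 1.68 (SE 0.13) for Nefh, 1.30 (SE 0.17) for Ina, 1.12 (SE 0.16) for Nefm and 1.09 (SE 0.26) for Prph on the log2(TPM + 1) scale, with limma adjusted p of at most 0.000355. Prph was at 1.59 and 1.75 TPM at P0, so this rise is between low levels. It was at 0.69, short of the threshold, after quantile normalization.

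In midbrain 2 of 5 members were called higher, against 18.3% of all genes: Nefh, at 2.74 (SE 0.13), and Nefl, at 1.03 (SE 0.15). The call for Nefl rests on the unnumbered midbrain P0 library, without which 1 of 5 was called. Nefm was at -0.79 (SE 0.16, limma adjusted p = 4.84e-05), Ina at 0.95 and Prph at 0.41. The midbrain libraries at P0 and at E11.5 differ in whether Gm5537 is listed at 0. With this split as a covariate Nefh was at 2.80 and Nefl at 1.07. That covariate rests on the hindbrain P0 libraries, the only brain group with libraries on both sides of the split. It thus cannot separate the split from the stage in midbrain. In hindbrain 1 of the P0 libraries differs from the E11.5 libraries in whether Gm5537 is listed at 0. There 2 of 5 were called higher, against 16.2% of all genes: Nefh, at 4.25 (SE 0.13), and Prph, at 1.70 (SE 0.26). Nefl was at 0.86, Nefm at 0.36 and Ina at 0.09, the last a net value across its rise and fall.

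The difference between regions in this change was itself tested. Nefl rose more in forebrain than in midbrain by 1.84 and than in hindbrain by 2.003, and Nefh rose less in forebrain than in hindbrain, with a difference of -2.57. Nefh also rose less in midbrain than in hindbrain, at -1.505, and less in forebrain than in midbrain, at -1.06. That last value was -0.83, and no longer called, without forebrain P0 replicate 2. Its size also depends on the pseudocount, because Nefh at E11.5 was below 1 TPM in forebrain and midbrain, where a rise is understated. Nefm differed between forebrain and midbrain by 1.91 and between midbrain and hindbrain by -1.15, Ina between forebrain and hindbrain by 1.21, and Prph between midbrain and hindbrain by -1.29. In each of the 3 pairs of regions 3 of 5 members were called, against 5% of all genes for forebrain and midbrain, 4.72% for midbrain and hindbrain and 7.96% for forebrain and hindbrain. The gradient of Nefl between forebrain and hindbrain thus narrowed, from a ratio of means of 19.4 at E11.5 to 4.53 at P0. That of Nefh widened between these stages, from 3.89 to 13.1, but it was wider at E16.5, at 27.2, than at P0.

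Shorter spans, chosen after the values were seen, separate an early from a late phase. From E11.5 to E14.5 Ina rose in forebrain, by 1.64, and in midbrain, by 1.84, Nefl rose in forebrain, by 1.37, and Prph rose in hindbrain, by 2.86, and in midbrain, by 1.41. From E14.5 to P0 Prph fell by 1.17 in hindbrain and by 1.01 in midbrain, and both calls rest on E14.5 replicate 2: without it Prph was at -0.67 in hindbrain and -0.78 in midbrain, neither called. In midbrain the call was also lost without P0 replicate 1, at -0.94. The midbrain span from E14.5 to P0 crosses the split by Gm5537, and the hindbrain span does for 1 library. Ina was at -0.89 in midbrain and -0.72 in hindbrain over this span, short of the threshold. Nefh rose in both spans in hindbrain, by 2.11 and then 2.14, and in midbrain, by 1.28 and then 1.46. In forebrain Nefh and Nefl rose in the later span, by 1.28 and 1.49. From E11.5 to E16.5, where all libraries had Gm5537 above 0, 2 members were called in each region: Nefl (1.73) and Ina (1.55) in forebrain, Nefh (2.13) and Ina (1.29) in midbrain, and Nefh (3.67) and Prph (2.25) in hindbrain. The shares of all genes called over E11.5 to E14.5 were 13.4% in forebrain, 19.3% in midbrain and 16.2% in hindbrain, and over E14.5 to P0 they were 16.3%, 11% and 6.51%. Over E11.5 to E16.5 they were 21.2%, 26.2% and 22.8%.

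**Figure D3:**
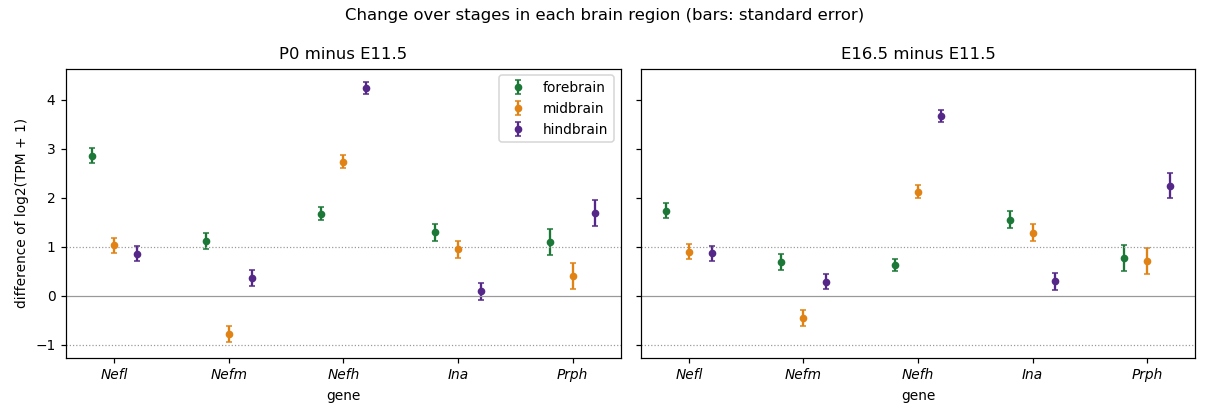
Change of each member from E11.5 to P0 (left) and from E11.5 to E16.5 (right) in forebrain, midbrain and hindbrain on the log2(TPM + 1) scale. Points are limma estimates with bars of 1 SE and the dotted lines mark changes of 1 and -1; by P0 all 5 members lie above 1 in forebrain, and Nefh is highest in hindbrain, at 4.25, as it is at E16.5, at 3.67.

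Every member varied over the 8 stages within each region by limma's test of any change with a range of group means of at least 1 on the log2(TPM + 1) scale, 15 of 15 combinations. The background was 51.9% of all genes in forebrain, 53.7% in midbrain and 50.8% in hindbrain. Without E15.5 the count was 13 of 15, since the range of Nefm was then 0.81 in midbrain and 0.79 in hindbrain. Between neighbouring stages 27 of 105 comparisons of a member were called, or 12 of 75 without E15.5. Pooled over the 21 comparisons of neighbouring stages, 4.17% of all genes were called, with a range of 0.761% to 9.33%. Of the 12, 6 were at E11.5 against E10.5, where forebrain at E10.5 was a single library, and 2 at E12.5 against E11.5, both of Ina. Nefh and Prph in hindbrain at E13.5 against E12.5 made 2 more. These 10 all cross the split by Gm5537, so that stage and split cannot be told apart in them. Nefl and Prph in hindbrain at E11.5 were no longer called without E10.5 replicate 2, at 0.79 and 0.88, nor was Ina in midbrain at E12.5 without E12.5 replicate 2, at 0.94. The others were Nefl and Nefh in forebrain at P0 against E16.5, which do not cross the split. Without forebrain P0 replicate 1 they were at 0.95 and 0.82, and without E16.5 replicate 2 Nefl was at 0.93, none of them called.

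The make-up of the family also differed between regions and stages. The summed TPM of the 5 members went from 27.2 at E10.5 to 378 at P0 in forebrain and from a mean of 492 to 1301 in hindbrain. Ina made up 75.0% of that sum on average over the forebrain libraries from E11.5 to P0 and 44.8% over the hindbrain libraries, with SDs of 8.22 and 14.3 percentage points (n = 14 each). Nefl made up 13.48% against 28.4%, Nefm 10.9% against 21.2%, and Prph 0.350% against 4.58%. In an exact two-sided permutation test within stages over 14 and 14 libraries these 4 shares gave p = 7.14e-06, the smallest that the 279936 arrangements can give, and 8.93e-06 after adjustment over the 5 shares. Nefh made up 0.333% against 1.10% (exact permutation p = 0.000336). Without E15.5 Ina made up 56.7% to 81.8% in forebrain and 25.5% to 53.1% in hindbrain, which did not overlap, with means of 74.2% and 40.6% (exact permutation p = 4.29e-05). The means were then 13.9% and 29.98% for Nefl, 11.1% and 23.04% for Nefm and 0.372% and 5.15% for Prph, with the same exact permutation p, the smallest possible. For Nefh they were 0.347% and 1.19% (exact permutation p = 0.00189).

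At P0 the light and heavy subunits had a larger share than at E11.5 and the medium subunit a smaller one. Over the 3 regions Nefl went from 22.4% of the sum at E11.5 to 33.0% at P0, Nefh from 0.217% to 2.02% and Nefm from 24.9% to 16.4%. The exact permutation p over 6 and 6 libraries was 0.00926 for each, the smallest that 216 arrangements can give, and 0.0154 after adjustment. Ina went from 51.4% to 46.7% (exact permutation p = 0.194) and Prph from 1.06% to 1.93% (exact permutation p = 0.102), neither past the threshold. Shares did not move in one direction over the stages between. The Nefm share went from 17.1% at E11.5 to 8.37% at E13.5 and 12.45% at P0 in forebrain, and from 30.1% to 17.2% and 26.8% in hindbrain. The Nefl share in forebrain was 15.53% at E10.5, 8.98% at E12.5 and 28.7% at P0. For Ina, in forebrain its share was 55.5% at E10.5, 81.6% at E13.5 and 57.6% at P0, and in hindbrain 27.0%, 52.7% and 27.5%.

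**Figure D4:**
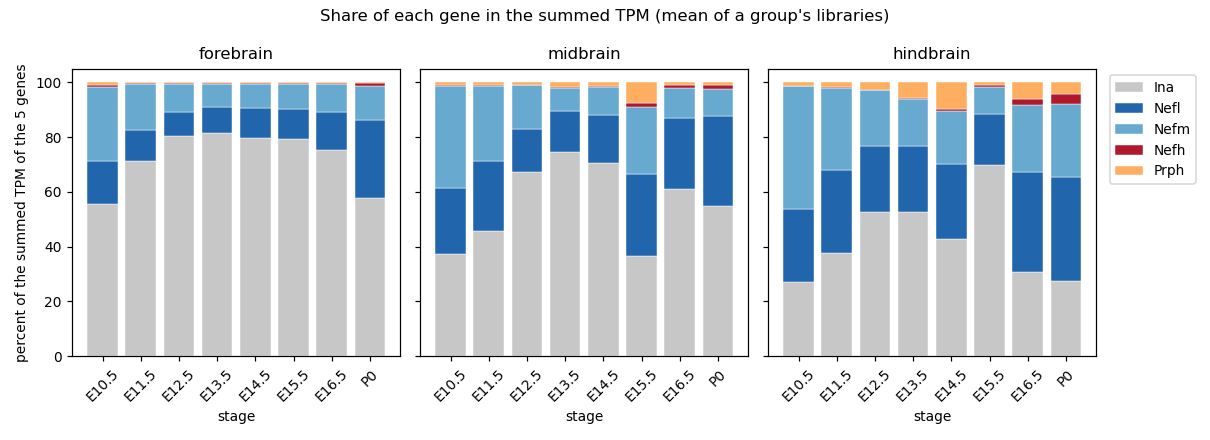
Share of each member in the summed TPM of the 5 genes, in percent, by region and stage. Bars are the means of the libraries of a group, and Ina takes 81.6% in forebrain and 52.7% in hindbrain at E13.5.

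Because these are bulk samples, fewer neurons and less filament RNA per neuron cannot be told apart, so general neuronal genes are given beside the members. None of 12 pan-neuronal genes was called between any pair of regions on average. Of all genes, 2.73% were called in either direction for forebrain and midbrain, 0.97% for midbrain and hindbrain and 4.32% for forebrain and hindbrain. The absence of calls among 12 genes is thus near the background. The median forebrain-minus-hindbrain difference of the pan-neuronal genes was -0.52, against -0.06 over all genes. Gap43, a growth-cone protein, was at -0.98, Snap25, a synaptic vesicle fusion protein, at -0.97 and Tubb3, the neuronal tubulin, at -0.18. Without E15.5 the median was -0.58, and Snap25, at -1.11, was called. Relative to Tubb3, in a comparison added after the values were seen, the log2 ratio of forebrain to hindbrain was -5.28 for Prph, -2.97 for Nefh, -2.94 for Nefl, -2.72 for Nefm and -0.99 for Ina. The exact permutation p for these ratios was 7.14e-06, the smallest possible. Without E15.5 they were -5.61, -3.09, -3.16, -3.01 and -1.04 (exact permutation p = 4.29e-05, again the smallest possible).

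From E11.5 to P0 the pan-neuronal genes also rose: 11 of 12 in forebrain, 10 of 12 in midbrain and 7 of 12 in hindbrain. Of all genes tested 19.2%, 18.3% and 16.2% were called higher in these regions. The median changes of the pan-neuronal genes were 2.63, 2.01 and 1.43, against 0.02, -0.01 and -0.02 over all genes. In forebrain the axonal tau gene Mapt rose by 4.92, Snap25 by 3.93 and the vesicle calcium sensor Syt1 by 3.75, all above the 2.86 of Nefl. Elavl4, a neuronal RNA-binding protein, was at 0.51.

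Of 5 intermediate filament genes of progenitors and glia none was called between forebrain and hindbrain, against 4.32% of all genes. Nes, the nestin gene of neural progenitors, was at 0.50 and Vim, vimentin, at 0.02 between those regions. With age they parted: from E11.5 to P0 Nes and Vim fell in all 3 regions, in forebrain by 3.35 and 2.73, while Gfap, the astrocyte filament, and Synm, synemin, rose, in forebrain by 5.04 and 2.10.

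Of 21 genes for linkers, transport motors, kinases and turnover factors of neurofilaments, 2 were lower in forebrain than in hindbrain: Cdk5r2, an activator of the neurofilament kinase Cdk5, at -1.56, and Plec, the cytoskeletal linker plectin, at -1.14, against 3.28% of all genes. Without E15.5 they were at -1.55 and -1.17 and were again the 2 called. Klc1 and Kif5c, parts of the kinesin-1 motor, were at -0.48 and -0.36. From E11.5 to P0, 9 of 21 rose in forebrain, 6 in midbrain and 4 in hindbrain, against 19.2%, 18.3% and 16.2% of all genes, so that the hindbrain count was near the background. The forebrain changes were 3.59 for Cdk5r2, 2.88 for the motor gene Kif5a and 2.59 for Cdk5r1, the other Cdk5 activator.

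Markers of neurons with peripheral axons, and of ganglia that could be attached to the dissected tissue, had a regional gradient in the direction of that of the members. The share of all genes called lower in forebrain than in hindbrain was 3.28%, and 3.56% without E15.5. Of 12 sensory ganglion genes 8 were lower in forebrain than in hindbrain, with a median of -1.81. Sncg, gamma-synuclein, was at -4.82, Prrxl1, a homeobox gene of sensory neurons, at -3.37 and Pou4f1 at -3.34. Without the libraries labelled E15.5 the summed TPM of the 12 genes was 7.80 to 29.9 in forebrain, 59.8 to 196 in midbrain and 109 to 592 in hindbrain. No gene of the list was at 0 in any hindbrain library. Sncg and Pou4f1 can make up most of this sum. They were at 74.4 and 61.1 TPM of 147 TPM in midbrain E13.5 replicate 2. In hindbrain E14.5 replicate 1 they were at 264 and 41.8 TPM of 391 TPM. Whether their RNA came from ganglia or from neurons within the brain was not tested. Of 10 cranial motor and cholinergic genes tested 9 were lower in forebrain, among them the motor neuron homeobox genes Lhx4 at -2.23 and Lhx3 at -2.07, while Isl1 was at 0.83. Of 6 peripheral glia genes 4 were lower in forebrain, with Sox10, a transcription factor of glia, at -1.89 and Foxd3, a transcription factor of the neural crest, at -1.47. Summed TPM of the peripheral glia genes was 9.09 to 35.9 in forebrain, 10.8 to 25.5 in midbrain and 32.4 to 78.3 in hindbrain, again without E15.5. Without E15.5 the counts were again 8 of 12, 9 of 10 and 4 of 6, with medians of -1.99, -2.09 and -1.55. The part of attached ganglia in the gradient of Prph and of the neurofilaments was not tested.

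For Prph, libraries of the same group could be set beside these markers. At E14.5 the hindbrain replicate 2 library held 185 TPM of Prph against 91.9 TPM in replicate 1, and all 12 sensory ganglion genes were higher in it. P2rx3, an ATP receptor of pain-sensing neurons, was at 43.0 against 24.8 TPM, and Sncg at 408 against 264 TPM. All 6 peripheral glia genes were higher in the same library, and the summed TPM of the cranial motor genes was 103 against 80.4, a ratio of 1.29, beside 1.51 for the sensory ganglion sum. The other members differed less within this pair: Nefl was at 404 against 351 TPM, Nefh at 9.57 against 9.26 TPM and Ina at 572 against 611 TPM.

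In midbrain at E13.5 the pattern was alike: Prph was at 18.5 TPM in replicate 1 and 6.92 TPM in replicate 2, with P2rx3 at 6.09 against 2.67 TPM. Of the 12 sensory ganglion genes 11 were higher in replicate 1, and Nefl was at 111 against 108 TPM. The cranial motor sum was higher in replicate 1 by a ratio of 1.40 and the sensory ganglion sum by 1.23. Of the 3 groups whose Prph differed by a factor of 2 or more, the other was forebrain at E16.5, at 0.72 and 1.64 TPM. There the library with more Prph did not have the higher sensory ganglion sum (9.16 against 9.26 TPM) or cranial motor sum (33.3 against 42.8 TPM). Over the 23 brain groups with 2 libraries, the library with more Prph also had the higher sensory ganglion sum in 13, or in 12 of the 16 groups of midbrain and hindbrain. It had the higher peripheral glia sum in 17 of 23 and the higher cranial motor sum in 7 of 23. Attached ganglion tissue as a part of these differences was not tested.

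**Figure D5:**
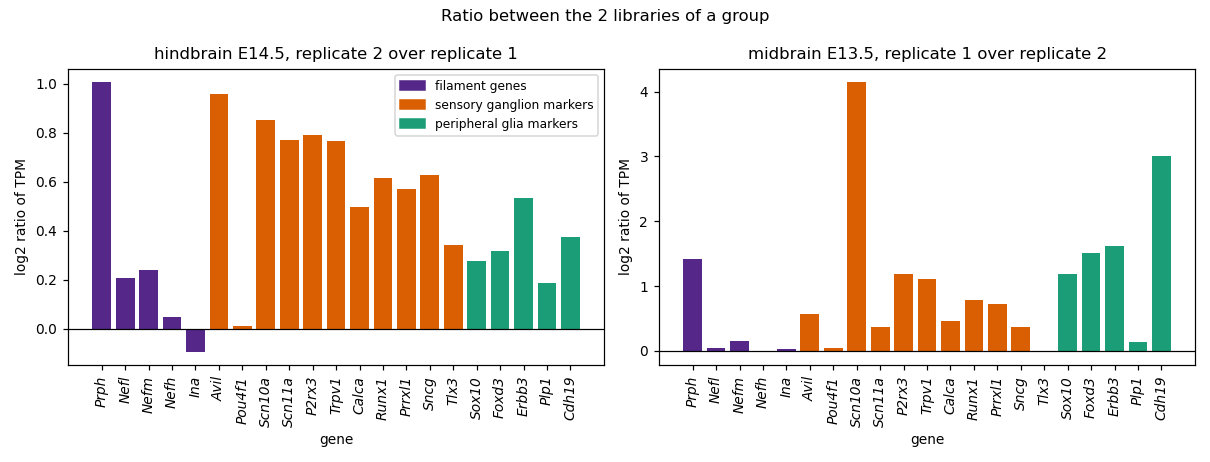
Log2 ratio of TPM between the libraries of a pair, the library with more Prph over the other, in hindbrain at E14.5 (left) and midbrain at E13.5 (right). Bars are genes, coloured as filament, sensory ganglion or peripheral glia genes, and the widest ratios in midbrain belong to genes at low TPM; in the hindbrain pair every sensory ganglion gene drawn lies above 0, and Nefh and Ina lie close to 0.

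Genes whose group means over brain tissues and stages followed those of a member most closely were listed as a description, over 23 groups and 12068 genes with a brain mean of at least 5 TPM. The groups share tissues and stages but no library, and the measure was Pearson's r of log2(TPM + 1). The closest were Ret, the receptor of glial-cell-derived growth factors, for Nefl (r = 0.966), Prrxl1 for Nefm (0.946), Vamp1, a vesicle protein of synapses, for Nefh (0.971), Asxl3 for Ina (0.973) and Lamp5 for Prph (0.945). Without E15.5, over 20 groups, the closest gene was the same for each member. Among the members r was 0.917 for Nefl and Prph, 0.911 for Nefl and Nefm and 0.907 for Nefm and Prph, and it was lowest for Nefm and Ina, at 0.440.

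Liver gave the level in a tissue outside the brain. Nefl was at 1.66 TPM or less and Ina at 4.71 TPM or less in every liver library. All 5 members were higher in brain than in liver on average, against 44% of all genes tested: Ina by 7.93, Nefl by 6.46, Nefm by 5.92, Prph by 2.74 and Nefh by 1.74 on the log2(TPM + 1) scale, beside a median of 0.82 over all genes. After quantile normalization, which moved that median to -0.01, all 5 were still called, with Nefh at 1.01. Within liver, Nefl, Nefm and Nefh fell from E11.5 to P0, by 1.24, 1.77 and 1.01, against 38.2% of all genes called lower and a median of -0.69 over all genes. After quantile normalization Nefh was at -0.87, no longer called. Nefh was at 1.17 and 1.29 TPM in liver at E11.5, above all forebrain libraries from E10.5 to E14.5.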

How the data were processed

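The authors deposited 1 table of TPM values for 43346 genes in 61 libraries. Reads were aligned with STAR 2.4.0k and quantified with RSEM 1.2.23 on mm10, per the submitters' processing notes, from stranded mRNA libraries, per the labels' protocols. Whether replicates were scaled together is not given in the sources used here. TPM keeps no depth, so depth per sample is unknown and no count model was used.

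The 18655 genes that reached 1 TPM in 2 libraries or more entered the tests. limma 3.58.1 in R 4.3.3 was fitted to log2(TPM + 1) with 1 mean per tissue and stage, a mean-variance trend and 30 residual degrees of freedom. Adjusted p-values are Benjamini-Hochberg over all genes tested within a comparison, and a call needed an adjusted p below 0.05 and a log2 difference of at least 1. This scale understates changes of low genes. The fit was tested on simulated data. Shares were compared by exact permutation of libraries within stages or regions. Symbols came from GENCODE, and 42462 of the genes had one.

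Besides the members, which are all named, the text names from each list up to 3 called genes with the largest change and up to 2 not called with the highest TPM, and up to 5 genes most like each member; some genes that the rule takes in are not reported here. Gap43 and Snap25 between regions, Synm, P2rx3, Hoxb3, Otx2 and Gm5537 fall outside this rule and were chosen after their values were seen. The members and lists were chosen with earlier results of these data known. Alternatives covered the pseudocount, the filter, scaling, the libraries in the fit, the replicate block, the 4 columns whose header and record disagree, E12.5, E15.5 and each library in turn. The 4 stages with Gm5537 above 0 in all brain libraries, that split as a covariate, marker lists without E15.5, leaving out libraries in the shorter spans, the shorter spans and the ratio to Tubb3 were added after seeing the data.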

Additional observations from a re-analysis of the deposited data

Results flagged for a closer look

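The change from E11.5 to P0 differed between brain regions for each member in at least 1 pair of regions, by limma's test of the difference on the log2(TPM + 1) scale with adjustment over all genes. Forebrain minus midbrain was 1.84 for Nefl (limma adjusted p = 1.01e-07), 1.91 for Nefm (1.25e-07) and -1.06 for Nefh (3.3e-05). Midbrain minus hindbrain was -1.15 for Nefm (limma adjusted p = 0.000274), -1.505 for Nefh (9.34e-08) and -1.29 for Prph (0.0105). Forebrain minus hindbrain was 2.003 for Nefl (limma adjusted p = 8.12e-09), -2.57 for Nefh (3.44e-13) and 1.21 for Ina (0.000196).

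In midbrain the libraries compared differ in whether Gm5537 is listed at 0. With this split as a covariate the forebrain-minus-midbrain values were 1.79 for Nefl, 1.62 for Nefm and -1.13 for Nefh, all still called. Hindbrain at P0 was the only brain group with libraries on both sides of the split, so the covariate rests on their difference. It cannot separate the split from the stage in midbrain, and these values are no check of the calls there. A single library far from its group could not be looked for, because groups held at most 2 libraries.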

How the results depend on the processing

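Of the counts and shares over members, 215 of 220 values were classed as the same under alternatives other than leaving out 1 library. This class allowed small changes of a count, so single members could gain or lose a call within it. For example, the count of members with any change over stages in a region went from 15 to 13 without E15.5. The exceptions to this class follow. Between midbrain and hindbrain, 2 members were called with all stages, 4 without the E15.5 libraries and 4 with only E11.5, E13.5, E14.5 and E16.5, where all brain libraries had Gm5537 above 0. From E11.5 to P0 in midbrain, 2 were called, against 1 with the replicate block and 1 without the 4 columns whose header disagrees with the record. Calls between neighbouring stages numbered 27, and 12 without E15.5. For single genes, the forebrain-minus-hindbrain difference in the change of Prph was -0.60, not called, and 0.59 with a pseudocount of 0.1. Prph in forebrain at E11.5 was at 0.27 and 0.23 TPM, low beside the pseudocount of 1. Its P0 mean was 6.68 times its E11.5 mean in forebrain and 3.37 times in hindbrain. The sign of this difference thus depends on the pseudocount. The cause of the other changes was not tested.

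Leaving out each library in turn gave 1 to 3 members called in midbrain from E11.5 to P0: 1 without the unnumbered P0 library and 3 without P0 replicate 1. It gave 2 to 3 for the change in forebrain minus midbrain, and the counts between regions stayed at 4, 2 and 5.

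Quantile normalization moved the share of higher calls among all genes from 35.1% to 47.3% for forebrain against midbrain, from 23.98% to 39.7% for forebrain against hindbrain, from 62.0% to 51.7% for P0 against E11.5 in forebrain, from 65.3% to 52.8% for the change in forebrain minus midbrain, from 82.5% to 49.3% for brain against liver and from 17.6% to 49.7% (66.8% with median-of-ratios scaling) for P0 against E11.5 in liver. Under it Ina (-1.005) was called between forebrain and midbrain.

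The replicate block used the number in the header. Over 325 pairs of groups, the deviations of same-numbered libraries correlated between -0.63 and 0.32, with a median of 0.00327 and 27 pairs above 0.1. These pairs join groups of the same and of different stages. The median therefore cannot show whether same-numbered libraries of 1 stage are paired. The block changed no count of members by more than 1.5 times apart from the midbrain value above.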
